A study of Homo sapiens with 9 samples.

Results

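Messenger RNA of tight junction genes was compared between B6TC cells and a pair of human breast cancer lines, MDA-MB-231 (here MDA231) and ZR-75-1 (here ZR75). The genes were the claudins CLDN1, CLDN3, CLDN4 and CLDN7, the MARVEL domain proteins OCLN, MARVELD2 and MARVELD3, the plaque proteins TJP3 and CGN, and the adhesion molecule F11R. Every probe set whose platform gene symbol is one of these 10 names was taken, which gave 20 probe sets of 9 genes out of the 54675 probe sets of the array. F11R was not analysed here, as no probe set carries its symbol in the annotation used. CLDN3 and MARVELD2 stood 21.6-fold to 28.7-fold lower in B6TC and MDA231 than in ZR75 at 1 probe set each. The tested probe sets of CLDN4, CLDN7, CGN, TJP3 and MARVELD3 were 2.6-fold to 6.07-fold lower and those of OCLN at most 2.14-fold lower, while both probe sets of CLDN1 fell below the level set for testing in all lines. Between B6TC and MDA231, 0 of the 13 tested probe sets of these genes differed by 2-fold, where 2.57% of all tested probe sets were higher and 1.28% lower by that much. A count of 0 of 13 is close to these shares and sets these genes apart from no others.

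B6TC is labelled a fusion line of the other two, GFP positive and estrogen-independent, and by the methods was grown out of a tumor in a nude mouse without estrogen supplementation, with G418 to kill mouse cells. The MDA-MB-231/GFP/Neo cells are ER negative and resistant to G418, and come from a single clone, named clone 10. The ZR-75-1/GFP/puro cells are ER positive, resistant to puromycin and a pool of transfected cells. All lines carried GFP and were grown in McCoy's 5A medium with fetal bovine serum. The RNA of each line was hybridised to 3 Affymetrix U133 Plus 2.0 arrays, which the labels call technical replicates. Every p-value below thus rests only on the spread between arrays of the same line, pooled over the 3 lines. The values are deposited log2 expression values, and a difference of 1 is a 2-fold difference.

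Tight junctions seal the space between neighbouring epithelial cells near their apical edge. Claudins span the membrane, form the strands and set which ions pass. Occludin (OCLN), tricellulin (MARVELD2) and MARVELD3 are also embedded in the membrane, and tricellulin gathers at the corners where cells meet. On the cytoplasmic side, zonula occludens proteins such as TJP3 and the adaptor cingulin (CGN) tie the strands to the cytoskeleton. Luminal breast epithelium expresses these genes, and carcinoma cells that have taken on a mesenchymal state commonly express fewer of them.

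Luminal markers were high in ZR75 and most mesenchymal markers in both other lines, and 1 array stood apart. The summed linear level of 8 luminal epithelial markers was 4.431e+04 to 4.542e+04 on the ZR75 arrays and 3700 to 3828 in MDA231. On B6TC arrays 1, 2 and 3 it was 3579, 3537 and 5019. Most luminal markers were still at a mean of 6 or more outside ZR75: 8 in ZR75, 7 in MDA231 and 7 in B6TC. The summed level of 7 mesenchymal markers was 976.3 to 989.5 in ZR75, 2.077e+04 to 2.103e+04 in MDA231 and 2.215e+04 to 2.249e+04 in B6TC. In the same order, 2, 6 and 6 of the mesenchymal markers were at a mean of 6 or more. Of these markers FN1 went the other way, with means of 9.67 in ZR75, 9.55 in MDA231 and 9.09 in B6TC. CDH2 was low in every line, with means of 4.36, 4.47 and 4.20 in the same order. ESR1 (estrogen receptor alpha) at probe set 205225_at, chosen after its values were seen, had means of 10.16 ± 0.085 in ZR75, 3.31 ± 0.039 in MDA231 and 3.76 ± 0.43 in B6TC (SD, n = 3 arrays), while its probe set with the highest mean, 211234_x_at, had 7.19 ± 0.34, 6.64 ± 0.081 and 6.30 ± 0.13. None of the 6 hematopoietic markers with a probe set reached a mean of 6 in any line. B6TC array 3 was the highest of the B6TC arrays at 197 of 224 other probe sets that were high in ZR75 and low in MDA231 (at least 8, under 6 and at least 3 apart), and CDH1 (E-cadherin) was 3.38, 3.26 and 6.89 on B6TC arrays 1, 2 and 3. Among the tight junction probe sets tested below, array 3 was the highest of the B6TC arrays at 8 of 13, with a median deviation of 0.21 from the mean of the other arrays, against -0.02 for array 1 and -0.14 for array 2. The part of this array in the results was not tested; values without it are given where they change a call.

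A probe set was tested where its value was 6 or more on at least 3 of the 9 arrays, which held for 21095 probe sets and for 13 of the 20 of the tight junction genes. Both probe sets of CLDN1 fell below this level, as did 1 of 2 for CLDN4, 1 of 4 for OCLN, 1 of 2 for MARVELD2 and 2 of 3 for MARVELD3. Of the 13 that passed, 9 did so through the ZR75 arrays alone, so that they had to be higher there. These were both probe sets of CLDN3, TJP3 and CGN, and MARVELD2 235141_at, MARVELD3 239350_at and OCLN 209925_at. As the filter fixed their direction against ZR75, their p-values against ZR75 and counts over the 13 against it are given as a description. The deposited values hold no detection calls, and levels of different probe sets cannot be set against each other.

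Claudins. CLDN3, a sealing claudin, had the widest gap among them. Its probe set 203953_s_at was 3.77, 4.04 and 4.57 on the B6TC arrays, 4.39, 4.55 and 4.35 in MDA231, and 8.93, 8.94 and 8.72 in ZR75. The ZR75 arrays all lay above those of the other lines, which overlapped each other. The level in B6TC was 26.7-fold lower than in ZR75 (log2 difference -4.74, SE 0.17, limma adjusted p = 1.09e-09), and that in MDA231 was 21.6-fold lower (-4.43, SE 0.17, limma adjusted p = 1.76e-09). The second CLDN3 probe set, 203954_x_at, whose suffix marks probes that may also match other transcripts, showed a smaller gap, with means of 5.80 ± 0.18 in B6TC, 5.95 ± 0.033 in MDA231 and 8.06 ± 0.11 in ZR75 (SD, n = 3 arrays).

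CLDN7, which is found along the lateral membrane as well as at the junction, was the claudin with the clearest difference between B6TC and MDA231. Its only probe set, 202790_at, was 7.52, 7.63 and 7.63 in B6TC, 7.06, 7.21 and 7.16 in MDA231, and 9.42, 9.35 and 9.39 in ZR75. The 3 lines did not overlap: ZR75 was highest, then B6TC, then MDA231. B6TC exceeded MDA231 by 0.45 (SE 0.055, 1.36-fold, limma adjusted p = 5.58e-05) and lay 3.46-fold under ZR75 (-1.79, limma adjusted p = 3.86e-10), while MDA231 lay 4.72-fold under it (-2.24, limma adjusted p = 8.11e-11).

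CLDN4, the neighbour of CLDN3 on chromosome 7 with 0 coding genes between them, went the other way between B6TC and MDA231. Probe set 201428_at was 5.76, 5.89 and 5.92 in B6TC, 6.39, 6.05 and 6.07 in MDA231, and 7.68, 7.68 and 7.67 in ZR75. Here MDA231 stood between the other lines without overlap. B6TC differed from MDA231 by -0.31 (SE 0.085, limma adjusted p = 0.00909), and against ZR75 it was 3.52-fold lower (-1.82, limma adjusted p = 9.63e-09). The other CLDN4 probe set, 1569421_at, ranged from 4.54 to 5.00 over the 9 arrays and was below the filter.

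CLDN1, the claudin of the epidermal barrier, showed no difference between the lines that these arrays could resolve. Its probe set 222549_at had means of 4.19 ± 0.059 in B6TC, 4.07 ± 0.23 in MDA231 and 4.17 ± 0.07 in ZR75 (SD, n = 3 arrays), and 218182_s_at ranged from 2.70 to 3.21. All lines overlapped at both, and in a fit without the filter the lowest limma adjusted p over both probe sets and the 3 comparisons was 0.179.

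As most members, CLDN1 aside, stood higher in ZR75, the sequence before the members' start sites was examined, in RefSeq windows of 250 bases upstream of a gene's start (GRCh38.p14), which were at hand for 8 of the 10 genes in 11 windows. MARVELD3 and F11R had no entry. The letters CAGGTG, or CACCTG on the other strand, are the E-box that the repressors ZEB1 and SNAI2 are known to bind. They occurred in 4 of 11 windows (36.4%) of 3 genes, against 6143 of 35116 windows over all genes (17.5%). Of these 4 windows, 2 are those of the neighbouring starts of OCLN, and the member windows had a GC content of 58.8% to 76.0%, beside a median of 58% over all windows, so that the shares are not of like sequence. AACCGGTT, the palindrome known for the activator GRHL2, was in 0 of 11 windows and in 0.117% of all. A match is a string of letters and no measured site, and its absence says only that the letters are not in the window. The CLDN7 window is shown for its 4 matches, in capitals, and that of CLDN3 as the claudin with the widest gap, which holds none.
CLDN7, second start (chr17:7262479-7262728, minus strand): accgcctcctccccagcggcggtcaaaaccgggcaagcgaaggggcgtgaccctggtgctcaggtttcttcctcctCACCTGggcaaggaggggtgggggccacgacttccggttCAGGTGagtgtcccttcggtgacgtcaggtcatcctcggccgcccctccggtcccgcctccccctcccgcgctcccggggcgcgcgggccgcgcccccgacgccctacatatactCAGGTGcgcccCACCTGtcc
CLDN3 (chr7:73770271-73770520, minus strand): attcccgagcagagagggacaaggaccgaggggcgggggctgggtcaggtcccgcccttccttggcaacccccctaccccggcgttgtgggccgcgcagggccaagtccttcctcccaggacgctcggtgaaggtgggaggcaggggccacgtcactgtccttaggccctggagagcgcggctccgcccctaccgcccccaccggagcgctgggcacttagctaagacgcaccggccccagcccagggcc
The CLDN7 matches end 168, 129, 14 and 3 bases before the start. The window of the first CLDN7 start held 0 matches, and the windows of CLDN1 and CLDN4 also held 0.

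**Figure D1:**
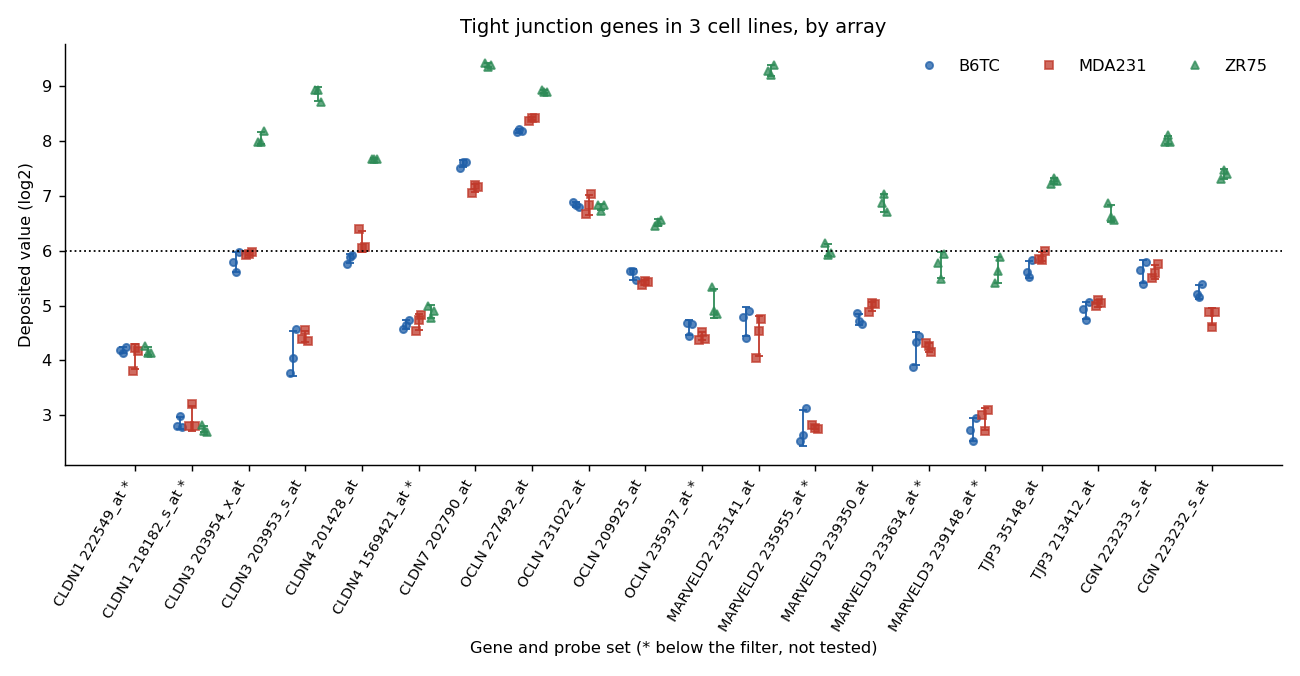
Deposited log2 value (vertical axis) of each of the 20 probe sets on the 3 arrays of B6TC (circles), MDA231 (squares) and ZR75 (triangles); bars span 1 SD either side of the mean of the 3 arrays and the dotted line marks the filter level of 6. The ZR75 arrays lie above the others at most probe sets, with the widest gaps at CLDN3 203953_s_at and MARVELD2 235141_at, while the lines overlap at CLDN1 and at OCLN 231022_at.

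MARVEL domain proteins. MARVELD2 (tricellulin) was the member with the largest difference between MDA231 and ZR75. Probe set 235141_at was 4.80, 4.41 and 4.91 in B6TC, 4.05, 4.54 and 4.75 in MDA231, and 9.28, 9.20 and 9.39 in ZR75. B6TC and MDA231 overlapped, and the ZR75 arrays lay far above both. The level was 24-fold lower in B6TC (-4.58, SE 0.17, limma adjusted p = 1.77e-09) and 28.7-fold lower in MDA231 (-4.84, SE 0.17, limma adjusted p = 1.16e-09) than in ZR75, whereas B6TC and MDA231 differed by 0.26 (SE 0.17, limma adjusted p = 0.204). The second probe set, 235955_at, was below the filter, with 2.53, 2.64 and 3.14 in B6TC, 2.82, 2.76 and 2.75 in MDA231 and 6.14, 5.93 and 5.96 in ZR75, and showed the same order of ZR75 above both others.

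OCLN lies next to MARVELD2 on chromosome 5 with 0 coding genes between them, but its probe sets differed far less between the lines. Probe set 227492_at was 8.16, 8.23 and 8.19 in B6TC, 8.37, 8.43 and 8.43 in MDA231, and 8.94, 8.89 and 8.90 in ZR75. The lines did not overlap, in the order ZR75, MDA231, B6TC. The log2 difference of B6TC was -0.22 from MDA231 (SE 0.042, limma adjusted p = 0.00112) and -0.72 from ZR75 (1.64-fold, limma adjusted p = 5.24e-08).

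The probe sets of OCLN disagreed on the order of B6TC and MDA231. Probe set 209925_at was 5.63, 5.63 and 5.46 in B6TC, 5.37, 5.45 and 5.44 in MDA231, and 6.45, 6.52 and 6.57 in ZR75, so that B6TC was 0.16 above MDA231 (SE 0.058, limma adjusted p = 0.0391), opposite to 227492_at. This call was lost without B6TC array 1 (limma adjusted p = 0.131), without B6TC array 2 (0.127), and without MDA231 array 1 (0.106), 2 (0.0596) or 3 (0.0646), and also with no filter (0.113) or robust and trended variances (0.138). Probe set 231022_at showed no difference in any comparison: its means were 6.85 ± 0.05, 6.84 ± 0.18 and 6.80 ± 0.06 in B6TC, MDA231 and ZR75 (SD, n = 3 arrays), all lines overlapped, and B6TC and ZR75 differed by 0.05 (SE 0.083, limma adjusted p = 0.588). The fourth, 235937_at, ranged from 4.38 to 4.68 in B6TC and MDA231 and from 4.85 to 5.34 in ZR75, below the filter.

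The windows before MARVELD2 and OCLN are shown because these neighbours differed so unequally. The window of the first OCLN start held 1 match to the E-box letters, in capitals, which ends 27 bases before the start, and that of MARVELD2 held 0.
MARVELD2 (chr5:69414866-69415115, plus strand): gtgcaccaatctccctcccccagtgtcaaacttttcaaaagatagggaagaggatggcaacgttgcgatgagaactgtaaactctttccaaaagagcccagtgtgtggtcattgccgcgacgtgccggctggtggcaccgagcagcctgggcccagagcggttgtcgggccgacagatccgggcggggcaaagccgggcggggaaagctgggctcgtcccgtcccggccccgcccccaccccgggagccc
OCLN, first start (chr5:69492297-69492546, plus strand): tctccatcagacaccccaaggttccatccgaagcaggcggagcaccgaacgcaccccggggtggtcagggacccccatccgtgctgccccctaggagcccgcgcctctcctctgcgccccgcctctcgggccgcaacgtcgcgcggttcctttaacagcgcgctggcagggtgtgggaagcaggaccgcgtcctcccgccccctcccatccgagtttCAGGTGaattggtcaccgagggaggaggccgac

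MARVELD3, which has been linked to the restraint of stress kinase signaling at the junction, was higher in ZR75 at each of its 3 probe sets. The 1 that was tested, 239350_at, was 4.86, 4.72 and 4.67 in B6TC, 4.89, 5.04 and 5.03 in MDA231, and 6.87, 7.03 and 6.71 in ZR75. ZR75 lay above both other lines, and B6TC lay just under MDA231. The level in B6TC was 4.34-fold under ZR75 (-2.12, limma adjusted p = 3.18e-09) and just under MDA231 (-0.24, SE 0.086, limma adjusted p = 0.0345). The latter call was lost without B6TC array 2 (limma adjusted p = 0.0883) or 3 (0.111), and without MDA231 array 2 (0.0999) or 3 (0.0977), as it was with no filter (0.0773), robust regression (0.0525), robust and trended variances (0.0673), arrays centred on medians (0.0651) or quantile normalization again (0.0566). In a fit without the filter, the other 2 probe sets, 239148_at and 233634_at, were lower in B6TC than in ZR75 by log2 differences of -2.91 (limma adjusted p = 2.07e-08) and -1.52 (limma adjusted p = 6.24e-06).

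Plaque proteins. CGN (cingulin) was lower in B6TC and MDA231 than in ZR75 at both of its probe sets. Probe set 223233_s_at was 5.66, 5.39 and 5.80 in B6TC, 5.50, 5.59 and 5.76 in MDA231, and 7.98, 8.11 and 7.99 in ZR75, which put B6TC 5.32-fold under ZR75 (-2.41, limma adjusted p = 4.62e-09). At this probe set B6TC and MDA231 overlapped, with a difference of -0.00 (SE 0.1, limma adjusted p = 0.996).

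The second CGN probe set, 223232_s_at, was 5.21, 5.16 and 5.39 in B6TC, 4.89, 4.62 and 4.88 in MDA231, and 7.31, 7.48 and 7.40 in ZR75. Here the B6TC arrays lay above all MDA231 arrays, by 0.46 (SE 0.088, 1.37-fold, limma adjusted p = 0.00114), and below all ZR75 arrays (-2.14, limma adjusted p = 3.53e-09). The CGN probe sets thus differ on whether B6TC exceeded MDA231.

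TJP3 (ZO-3), a scaffold that binds claudin tails, showed gaps of a similar size at both probe sets. Probe set 35148_at was 5.61, 5.52 and 5.83 in B6TC, 5.86, 5.83 and 5.99 in MDA231, and 7.22, 7.33 and 7.27 in ZR75. Against ZR75 the level was 3.07-fold lower in B6TC (-1.62, limma adjusted p = 1.26e-08), and B6TC was under MDA231 (-0.24, SE 0.078, limma adjusted p = 0.0226). That last call was lost without B6TC array 1 (limma adjusted p = 0.0703), B6TC array 2 (0.0883) or MDA231 array 3 (0.0846), and with no filter (0.0575). Probe set 213412_at was 4.94, 4.74 and 5.06 in B6TC, 4.99, 5.10 and 5.04 in MDA231, and 6.87, 6.61 and 6.57 in ZR75, with no call between B6TC and MDA231 (-0.13, SE 0.096, limma adjusted p = 0.257). TJP3 is the third gene with a match to the E-box letters, shown in capitals, which ends 1 base before its second start, while the window of the first start held 0 and that of CGN also held 0.
TJP3, second start (chr19:3721487-3721736, plus strand): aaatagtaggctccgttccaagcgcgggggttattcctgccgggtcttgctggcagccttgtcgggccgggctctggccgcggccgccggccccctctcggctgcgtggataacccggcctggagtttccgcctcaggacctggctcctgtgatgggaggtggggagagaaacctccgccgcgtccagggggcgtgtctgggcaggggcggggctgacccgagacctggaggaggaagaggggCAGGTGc

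Against ZR75, 12 of the 13 tested probe sets, of 8 genes, were lower in B6TC, and 10 of them, of 7 genes, by at least 2-fold. Over all probe sets tested, 40.6% were lower, 43% higher and 13.2% lower by at least 2-fold. The median log2 difference of the 13 was -1.82, beside 0.01 over all tested. In MDA231, 12 were lower, and 11, of 8 genes, by at least 2-fold, where 39.9% of all tested were lower, 43.8% higher and 14.5% lower by at least 2-fold, and the median of the 13 was -1.88 beside 0.03. Both comparisons share the ZR75 arrays. With no filter, all 20 probe sets could be counted: 16 were lower and 0 higher in B6TC, where 26.4% of all probe sets were lower, and 16 were lower and 0 higher in MDA231, where 23.9% were lower. The 4 others were both probe sets of CLDN1, CLDN4 1569421_at and OCLN 231022_at. In RNA of a whole culture, fewer cells with a transcript and less of it per cell cannot be told apart.

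**Figure D2:**
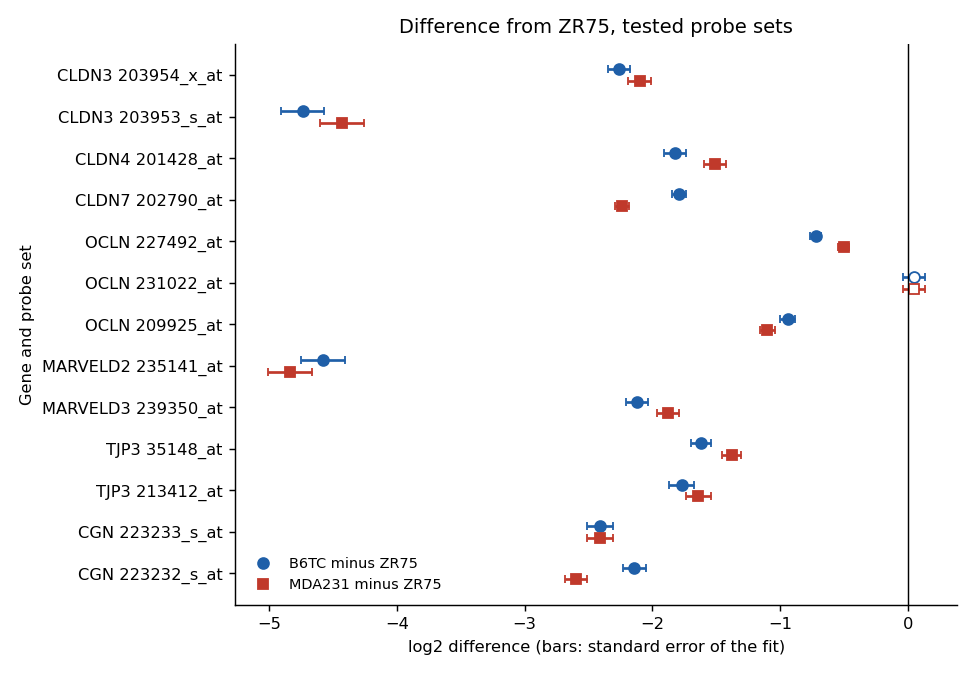
Log2 difference (horizontal axis) of the 13 tested probe sets in B6TC (circles) and MDA231 (squares) from ZR75, with bars of 1 standard error of the limma fit and filled symbols for an adjusted p of 0.05 or less. At every probe set but OCLN 231022_at both lines lie left of 0, and the widest differences are at CLDN3 203953_s_at (-4.74 and -4.43) and MARVELD2 235141_at (-4.58 and -4.84).

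Between B6TC and MDA231 the tight junction genes differed in both directions. CLDN7, CGN 223232_s_at and OCLN 209925_at were higher in B6TC, and CLDN4, OCLN 227492_at, MARVELD3 239350_at and TJP3 35148_at were lower. That is 3 higher and 4 lower of 13, where 33.9% of all tested probe sets were higher and 31.3% lower (65.1% in either direction). Differences over the 13 ran from -0.31 to 0.46, with a median of -0.13 beside 0.01 over all tested. The median absolute difference over all tested was 0.26, so that differences of this size were common on the array. With no filter, 2 of the 20 were higher and 2 lower, where 15% of all probe sets were higher and 15.7% lower.

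The calls at CLDN7, CGN 223232_s_at, CLDN4 and OCLN 227492_at held when any 1 array was left out, with differences of 0.40 to 0.48, 0.37 to 0.51, -0.37 to -0.20 and -0.23 to -0.20. Without B6TC array 3, the array that stood apart, CLDN7 was 0.43 above MDA231 (limma adjusted p = 0.000386) and CGN 223232_s_at was 0.39 above it (limma adjusted p = 0.00475). CLDN3 gained a call without that array: at 203953_s_at the difference of B6TC from MDA231 was then -0.53 (limma adjusted p = 0.00178), in place of -0.30 (SE 0.17, limma adjusted p = 0.134), and 203954_x_at gave -0.25 (limma adjusted p = 0.0185) in place of -0.16 (SE 0.088, limma adjusted p = 0.145). Robust regression gave the CLDN3 calls too (-0.40, limma adjusted p = 0.00776, and -0.17, limma adjusted p = 0.0127). The lower count over the 13 ran from 2, without B6TC array 2 or without MDA231 array 3, to 5 without B6TC array 3.

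**Figure D3:**
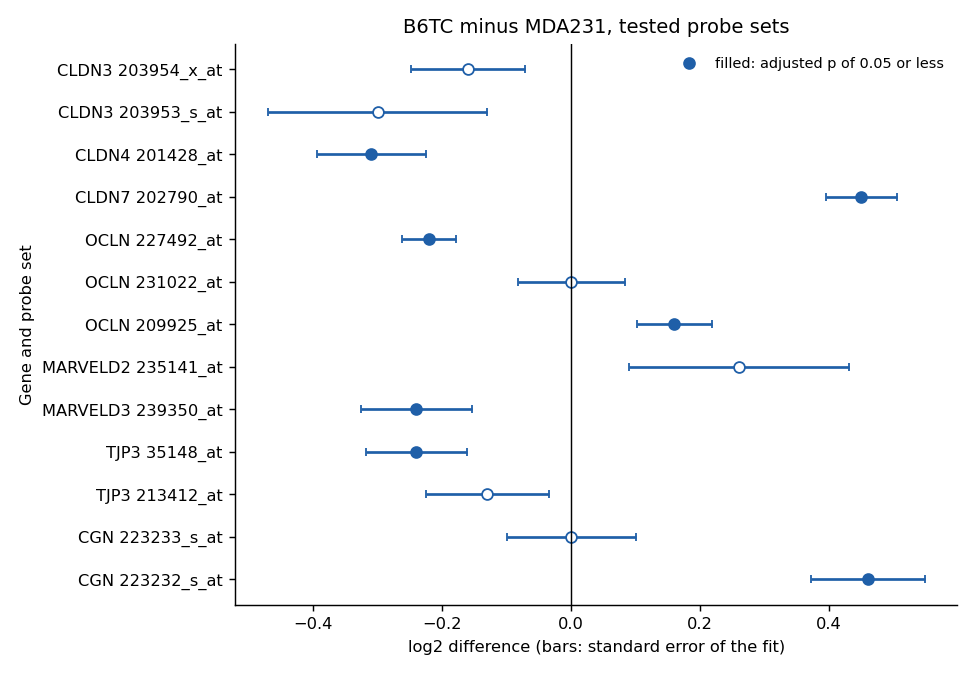
Log2 difference between B6TC and MDA231 (horizontal axis) for the 13 tested probe sets, with bars of 1 standard error of the limma fit and filled symbols for an adjusted p of 0.05 or less. CLDN7 and CGN 223232_s_at lie to the right at 0.45 and 0.46, CLDN4 lies farthest to the left at -0.31, and the probe sets of OCLN and of CGN differ among themselves.

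Where B6TC stood between the lines it is labelled as formed from was expressed as a position, with 0 at the mean of MDA231 and 1 at that of ZR75 on the log2 scale. This was computed for the 6 tight junction probe sets whose 2 parental means differed by at least 2. CLDN7 stood at 0.199 and CGN 223232_s_at at 0.176. MARVELD2 stood at 0.0543, CGN 223233_s_at at -0.000271, and CLDN3 at -0.0688 and -0.0739, just outside the MDA231 end. The median of the 6 was 0.027, beside 0.0179 over all 2485 tested probe sets with such a parental difference. From B6TC arrays 1, 2 and 3 alone the median was 0.045, -0.0478 and 0.0861, beside 0.0104, 0.0017 and 0.0492 over all of them. CLDN7 stood at 0.164, 0.217 and 0.217 on the 3 arrays and CGN 223232_s_at at 0.159, 0.14 and 0.229, so that these lay toward ZR75 on each array.

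**Figure D4:**
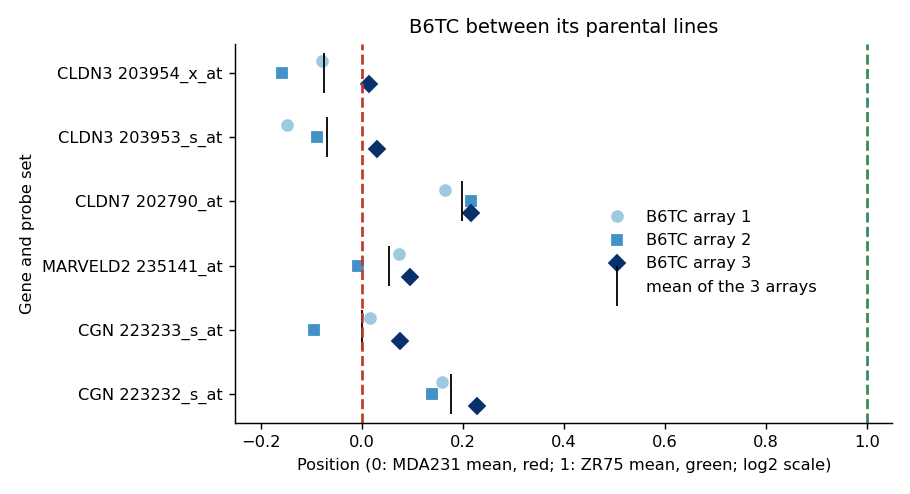
Position of B6TC on the log2 scale (horizontal axis) from the mean of MDA231 (0, red dashed line) to that of ZR75 (1, green dashed line) for the 6 probe sets whose parental means differed by at least 2; symbols are the 3 B6TC arrays and short lines their mean. The means lie nearer 0 than 1, from -0.0739 for CLDN3 203954_x_at to 0.199 for CLDN7. Single arrays run from -0.158 (CLDN3 203954_x_at, array 2) to 0.229 (CGN 223232_s_at, array 3).

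Other genes of the junction, polarity genes and transcription factors that act on epithelial genes were taken from lists of 69 genes. Of these, 62 had a probe set with a single symbol and 39 passed the filter, each counted through its probe set with the highest mean. The counts over all lists thus hold transcription factors as well as junction genes. Against ZR75, 17 were higher, 20 lower and 2 not called in B6TC, with a median of -0.14, where 43% of all tested probe sets were higher and 40.6% lower. In MDA231 18 were higher, 18 lower and 3 not called, where 43.8% of all tested were higher and 39.9% lower. Between B6TC and MDA231, 12 were higher, 13 lower and 14 not called, close to the shares over all tested (33.9% higher, 31.3% lower). The counts of single lists below are to be read against the same shares. Genes below the filter are not in these counts. Of the 39, 8 passed it through the ZR75 arrays alone, among them CXADR, PATJ and SPINT1. Another 6 passed it through none of these arrays, among them ESAM, PARD3B and EHF. The direction of both groups against ZR75 was fixed by the filter, and their p-values against ZR75 are a description. The exception is ILDR2, also of the 6, which passed through the MDA231 arrays alone. For it the filter fixed MDA231 against both other lines, but not B6TC against ZR75.

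Of 19 other claudins, 16 had a probe set and 4 were tested. CLDN12, a claudin that lacks the usual scaffold-binding tail, ran against the members: it was 8.66, 8.79 and 8.75 in B6TC, 8.65, 8.56 and 8.60 in MDA231, and 6.40, 6.64 and 6.64 in ZR75, 2.18 higher in B6TC than in ZR75 (limma adjusted p = 4.89e-10). CLDN15, a claudin that forms cation channels, was 0.27 higher (limma adjusted p = 0.00939; 0.105 when the values were quantile normalized again), and CLDN19 (-0.34, limma adjusted p = 0.00263) and CLDN6 (-0.26, limma adjusted p = 0.0486) were lower in B6TC than in ZR75. Between B6TC and MDA231, CLDN19 (-0.40, limma adjusted p = 0.00146) and CLDN6 (-0.29, limma adjusted p = 0.0397) were lower in B6TC. Both stood near the filter level of 6 in every line. In B6TC, MDA231 and ZR75 the means were 6.12, 6.52 and 6.45 for CLDN19 and 5.76, 6.05 and 6.02 for CLDN6. The CLDN6 call against MDA231 was lost when B6TC array 1 or 3, any MDA231 array or ZR75 array 1 was left out (limma adjusted p from 0.0508 to 0.145), and that against ZR75 when B6TC array 1 or 3, any MDA231 array or ZR75 array 1 or 2 was left out (from 0.0603 to 0.188).

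Of the list of other junction membrane proteins, which leaves out the MARVEL proteins and EPCAM, all 4 that were tested were lower in B6TC than in MDA231. For ILDR2 the filter fixed this direction, and over all tested probe sets 31.3% were lower. LSR (angulin-1), which recruits tricellulin to the corners where cells meet, was 5.94, 5.88 and 6.10 in B6TC, 6.38, 6.36 and 6.45 in MDA231 and 9.17, 9.04 and 9.22 in ZR75, with a difference of -0.42 from MDA231 (limma adjusted p = 0.000382) and of -3.17 from ZR75 (limma adjusted p = 3.75e-11). CXADR, an adhesion protein and virus receptor, had the same order (-0.31, limma adjusted p = 0.00225; -2.51, limma adjusted p = 1.54e-10). ILDR2 (angulin-3) passed the filter through the MDA231 arrays alone, so that it had to be higher there than in B6TC. It was 3.75, 3.85 and 3.85 in B6TC, 6.44, 6.06 and 6.12 in MDA231 and 3.56, 3.73 and 3.41 in ZR75. Its gap between B6TC and MDA231 was the largest of the listed genes (-2.39, limma adjusted p = 1.11e-07) and is given as a description. ESAM, an adhesion molecule of endothelial junctions, was lower in B6TC than in MDA231 (-0.78, limma adjusted p = 0.0011) and higher than in ZR75 (2.04, limma adjusted p = 3.43e-07).

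Among the plaque scaffolds, 5 of 8 tested were higher, 2 lower and 1 not called in B6TC against ZR75. Over all tested probe sets 43% were higher and 40.6% lower. PATJ, a scaffold of the Crumbs complex that binds TJP3, was 2.95, 3.00 and 3.37 in B6TC, 3.15, 2.88 and 2.76 in MDA231 and 8.43, 8.38 and 8.46 in ZR75 (-5.32 for B6TC, limma adjusted p = 4.45e-11), and MAGI3 was also lower (-2.06, limma adjusted p = 7.9e-09). TJP1 (ZO-1), the best-known junction scaffold, was not called against ZR75 (9.17 and 9.08, limma adjusted p = 0.061), though the call was gained without MDA231 array 1 (0.047), with filter level 7 (0.0438), robust regression (0.0141), robust and trended variances (0.0403), arrays centred on medians (0.0262) or 1 probe set per gene (0.0499), and was lower than in MDA231 (-0.51, limma adjusted p = 3.94e-06). MPDZ, a relative of PATJ, was higher in B6TC than in MDA231 (0.70, limma adjusted p = 9.62e-06).

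The polarity proteins, which place the junction along the cell side, were split as well. In B6TC against ZR75, 3 of 9 were higher, 5 lower and 1 not called, beside 43% higher and 40.6% lower over all tested. PARD6B was 6.99, 6.96 and 7.47 in B6TC, 7.93, 7.83 and 7.65 in MDA231 and 10.91, 10.85 and 11.16 in ZR75 (-3.84 for B6TC against ZR75, limma adjusted p = 1.22e-09). PRKCZ, an atypical protein kinase C, was 6.70, 6.64 and 6.70 in B6TC, 5.21, 5.04 and 4.75 in MDA231 and 7.52, 7.53 and 7.38 in ZR75. It was 1.68 higher in B6TC than in MDA231 (limma adjusted p = 5.76e-07) and the lines did not overlap. PARD3B, a relative of the polarity scaffold PARD3, was 1.23 higher in B6TC than in ZR75 (limma adjusted p = 1.69e-07).

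On the list of claudin partners at the membrane, all 4 genes tested were lower in B6TC than in ZR75. They are EPCAM, the inhibitors SPINT1 and SPINT2, and the protease ST14, which does not protect claudins. ST14 was lower by a log2 difference of -3.04 (limma adjusted p = 1.15e-08). Over all tested probe sets 40.6% were lower, and for SPINT1 the filter fixed the direction. EPCAM, which binds CLDN7 and shields it from degradation, was 8.18, 8.15 and 8.72 in B6TC, 7.71, 7.69 and 7.64 in MDA231 and 12.40, 12.45 and 12.51 in ZR75. As with CLDN7, B6TC lay between the lines, 0.67 above MDA231 (limma adjusted p = 0.00107; 0.49 without B6TC array 3, limma adjusted p = 6.43e-05) and under ZR75 (-4.10, limma adjusted p = 4.49e-10). SPINT1, an inhibitor of the protease that cleaves EPCAM, was lower than in ZR75 (-4.92, limma adjusted p = 5.15e-11) with no call against MDA231 (-0.21, limma adjusted p = 0.134), though without B6TC array 3 it was called lower there (-0.33, limma adjusted p = 0.0145). SPINT2, a related inhibitor, was lower in B6TC than in either line (-0.39 from MDA231, limma adjusted p = 3.44e-05).

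Of the transcription factors known to activate epithelial genes, 3 of 8 tested were higher and 5 lower in B6TC against ZR75, and all 5 of the latter passed the filter through the ZR75 arrays alone, which fixed their direction. Over all tested probe sets 43% were higher and 40.6% lower. GRHL2, an activator of CLDN4, had means of 3.62 in B6TC, 3.64 in MDA231 and 7.32 in ZR75 (-3.70 for B6TC, limma adjusted p = 1.33e-10). ELF5, a factor of the luminal secretory lineage, was lower too (-3.46, limma adjusted p = 3.3e-10). EHF, an epithelial ETS factor, was higher in B6TC than in both others (1.33 against MDA231, limma adjusted p = 4.15e-07; 3.62 against ZR75, limma adjusted p = 2.69e-11), as was KLF5 (1.31, limma adjusted p = 7.32e-08; 1.53, limma adjusted p = 1.16e-09). Of 5 repressors 2 passed the filter, through the B6TC and MDA231 arrays, so that they had to be higher there than in ZR75, and both were also higher in B6TC than in MDA231: ZEB1 by 0.32 (limma adjusted p = 0.00374) and 6.84 (limma adjusted p = 4.83e-13), and SNAI2 by 0.66 (limma adjusted p = 0.000233) and 6.26 (limma adjusted p = 4.59e-12) against MDA231 and ZR75.

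**Figure D5:**
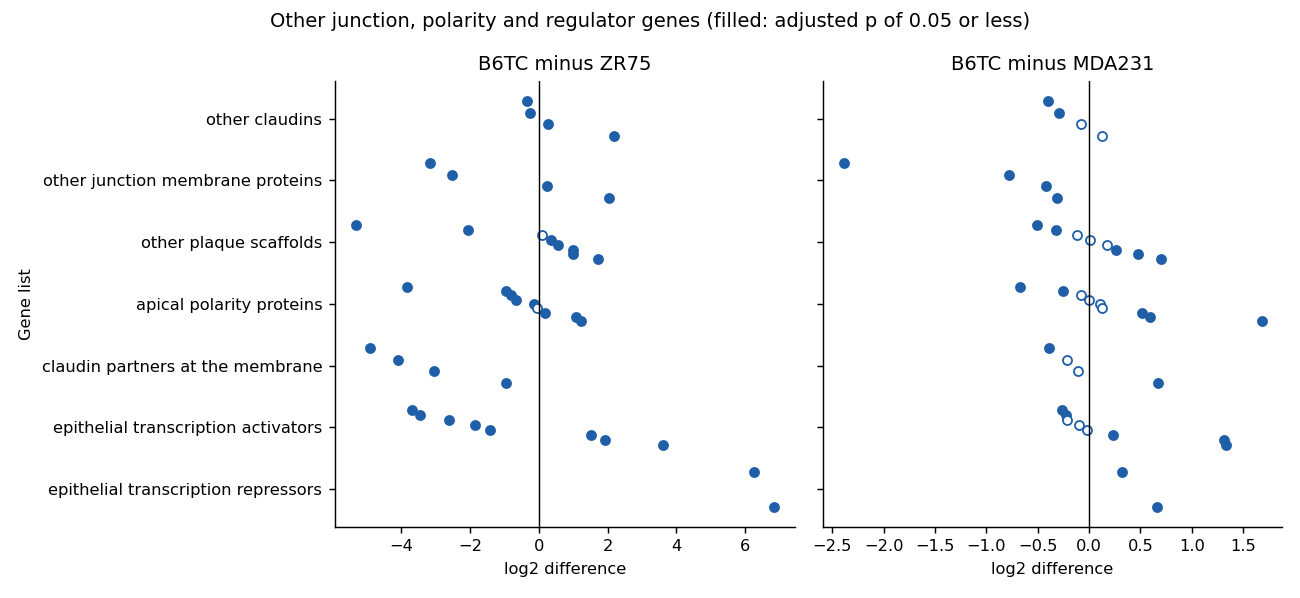
Log2 difference (horizontal axes, which differ in range) of the 39 tested genes on 7 lists, each point 1 gene and filled for an adjusted p of 0.05 or less, for B6TC against ZR75 (left) and against MDA231 (right). Claudin partners lie wholly left of 0 and the repressors wholly right of 0 against ZR75, the other lists lie on both sides, and the 4 other junction membrane proteins lie left of 0 against MDA231.

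The 8 tested member genes shared a profile of higher values in ZR75 than elsewhere, each at its tested probe set with the highest mean. For CLDN3, MARVELD2, MARVELD3, TJP3 and CGN the filter fixed this, as these probe sets passed through the ZR75 arrays alone. Standardizing hides the size of a gap, and OCLN 227492_at had means of 8.19 in B6TC, 8.41 in MDA231 and 8.91 in ZR75. The genes closest to the profile were sought over the 9 arrays as a description. The mean standardized profile of the 8 genes was -0.75, -0.79 and -0.65 in B6TC, -0.63, -0.58 and -0.53 in MDA231, and 1.30, 1.33 and 1.30 in ZR75. The 5 other genes with the highest Pearson correlation to it were RAB15 (0.9994), SMARCD2 (0.9994), DOK7 (0.9992), PATZ1 (0.9991) and RHOB (0.9991). Of 10743 genes compared, 574 reached 0.99, as any gene that is high in ZR75 and low in both other lines comes near it over 3 lines of 3 arrays each.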

How the data were processed

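RNA of the 3 lines was measured on 3 technical replicate arrays each. The deposited log2 values were, per the processing notes, made by the authors with Affymetrix Expression Console and RMA, with no version given, while the methods name GC-RMA, R/Bioconductor and GCOS. Which of these made the deposited values, and hence how background was removed, was not settled, and it bears most on levels under 6. Array medians were 4.89 to 4.96, and the number of arrays limits the precision. Of the probe sets without the 62 controls, 41091 carried 1 gene symbol, 1801 several and 11721 none, by the platform annotation with symbols updated by gene identifier, of which 54 were not found.

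A mean per line was fitted over the 9 arrays with limma 3.58.1 in R 4.3.3 (6 residual and 3.68 prior degrees of freedom), with Benjamini-Hochberg adjustment within each comparison over the 21095 probe sets at 6 or more on at least 3 arrays. A call is an adjusted p of 0.05 or less. The procedure was tested on simulated data. The replicate numbers did not pair the arrays: deviations of arrays with the same number correlated at -0.10 to 0.18 over 9 pairs. Named were all members and, per list and comparison, the called genes with the 2 largest differences, and also ST14. The members and lists were chosen with earlier results of these data known. Promoter sequences are RefSeq's, GRCh38.p14.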

Additional observations from a re-analysis of the deposited data

How the results depend on the processing

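The arrays are technical replicates by their labels, the background step of the values is not settled, and nothing here measures protein or junctions. Over all alternatives, no tight junction probe set changed the direction of a called difference, and against ZR75 only the 2-fold minimum took calls away (2 in B6TC, 1 in MDA231). Between B6TC and MDA231, 227 of 259 repeats of the member tests kept their side of the threshold, 28 lost and 4 gained a call. The 28 include every call under the 2-fold minimum, which had to be lost as no member difference reached 2-fold. The cause of the other changes was not tested. The count of member probe sets higher in B6TC fell from 3 to 1 with 1 probe set per gene and 0 with the 2-fold minimum, and the lower count from 4 to 2 with no filter and 0 with the 2-fold minimum. With 1 array left out these counts were 2 to 3 and 2 to 5, and the median difference was -0.19 to -0.04. Member medians against ZR75 were -1.97 (filter on level and variation), -2.14 (filter level 7), -1.97 (1 probe set per gene) and -1.97 (mean of a gene's probe sets) in B6TC, and -1.57 (no filter), -2.24 (level 7), -1.51 (no _x_at or _s_at probe sets) and -2.06 (mean) in MDA231. The median position was -0.0688 with no minimum parental difference, and -0.00611 to 0.0656 with 1 array left out.

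For the listed junction, polarity and transcription factor genes, B6TC against MDA231 gave 7 higher (no _x_at or _s_at probe sets) and 3 (2-fold). It gave 8 lower (level 7) and 1 (2-fold). B6TC against ZR75 gave 10 higher (2-fold), and 12 lower (level 7), 13 (no _x_at or _s_at) and 13 (2-fold). MDA231 against ZR75 gave 10 higher (2-fold) and 11 lower (no _x_at or _s_at). Over all probe sets, in the order no _x_at or _s_at, 1 per gene, mean per gene and 2-fold, B6TC against MDA231 gave 4294, 3952, 3828 and 542 higher and 3213, 3089, 3294 and 271 lower (4063 with the filter on level and variation), B6TC against ZR75 gave 5232, 4616, 4731 and 3695 higher and 4642, 4502, 4554 and 2789 lower (14435 with no filter), and MDA231 against ZR75 gave 5152, 4588, 4772 and 3579 higher and 4706, 4524, 4480 and 3056 lower (13076 with no filter).

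With the replicate number as a block, the member counts between B6TC and MDA231 were 2 higher and 4 lower, the call at OCLN 209925_at being lost (limma adjusted p = 0.0617), and against ZR75 the block changed no member's call. The numbers did not pair the arrays, so the calls with the block are given only here, though the repeats counted above include it.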
